A study of Mus musculus with 16 samples.

Results

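The Wnt genes described here comprised the Wnt ligands, the Frizzled receptors with their coreceptors Lrp5 and Lrp6, the secreted antagonists (Sfrp, Dkk and Wif1), the Axin scaffold and the TCF/LEF transcription factors. Their probes were found by gene symbol alone, but the list itself was chosen with earlier results of these data known. Of 25697 probes on the array, 60 carried such a symbol, and these probes named 42 of the 16593 genes on it. RNA came from a tumor culture of a conditional mouse model of alveolar rhabdomyosarcoma (aRMS, a muscle-lineage tumor), in which Cre under the Myf6 gene, a regulator of late muscle differentiation, had switched on Pax3:Foxo1a and removed p53. Every group carried these alleles. Knockdown cells had received 10 nM siYFP, an siRNA against the eYFP sequence carried on the Pax3:Foxo1a transcript, and control cells a control siRNA, both with 0.2% Lipofectamine. The cells had then been sorted by DNA content into 2N (G1/G0), 3N (S phase) and 4N (G2/M) fractions. The 6 groups were 2N knockdown and 2N control, 3N knockdown and 3N control, and 4N knockdown and 4N control cells. The 2N and 4N groups had 3 arrays each, 1 from each of 3 experiments, and the 3N groups had 2 each, from experiments 1 and 2, which made 16 arrays. Only 1 siRNA sequence was used, so off-target effects of siYFP and loss of the fusion cannot be told apart. In bulk RNA, fewer cells of a type and less RNA per cell cannot be told apart.

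Wnt ligands are lipid-modified secreted proteins that bind a Frizzled receptor together with Lrp5 or Lrp6. In the canonical branch this inactivates a destruction complex built on Axin, so that beta-catenin accumulates and turns on genes together with TCF/LEF factors. Sfrp proteins and Wif1 bind Wnt ligands outside the cell, and Dkk1 blocks the coreceptors. In muscle, Wnt signals are known for inducing the first myogenic cells in the embryonic somite and for acting on satellite cells during repair.

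Values below are log2 normalized signals, and 1 unit is a doubling. A probe was called detected on an array where its detection p, read from the deposited values, was under 0.05, and it was tested where it was detected on at least 3 of the 16 arrays. From 12535 to 13135 probes were detected per array, and 13882 were tested. By western blot of Pax3:Foxo1a and native Foxo1a, the study reported that siYFP specifically lowered Pax3:Foxo1a protein. On these arrays Foxo1 served as the check of the target, although no source used here says whether its probe reads the fusion transcript, native Foxo1 or both. It read 8.44, 8.23 and 8.69 in 2N knockdown cells, against 9.39, 9.24 and 9.28 in 2N control cells. Its 4N values were 8.61, 8.64 and 9.04 with knockdown, against 9.62, 9.38 and 9.40 in controls. The groups did not overlap, and Foxo1 fell by 0.85 ± 0.14 in 2N, 0.89 ± 0.17 in 3N and 0.70 ± 0.14 in 4N cells (SE of limma's linear model, adjusted p = 0.000712, 0.00358 and 0.00296). Among G2/M phase genes, all 8 measured were higher in the 4N fraction than in the 2N fraction, with knockdown and with control siRNA alike. Within the 2N fraction, 4 of these 8 genes and 4 of 11 measured G1/S genes were lower with knockdown (Plk1 by -0.77 and Cdc6 by -0.93). In 4N cells 1 G2/M gene was lower and 1 G1/S gene higher, and in 3N cells 1 G1/S gene was higher. These counts read the brightest detected probe of each gene. Dimmer probes of Cdk1 and Nusap1 also passed as lower in 4N cells (-0.53 and -0.51), while the remaining Nusap1 probe gave -0.15 and did not pass. Dimmer Cdc20 probes passed as lower in 2N cells (-0.65, -0.43 and -0.38), and the dimmer Cdc6 probe did not pass there. Shares over all tested probes are given below. The part of these phase genes in the Wnt gene changes was not tested.

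Of the 42 Wnt genes, 20 gave too little signal to be tested in this culture. Of the 60 probes, 27 were detected on 0 arrays, 5 on 1 or 2 arrays, and 28 probes of 22 genes were tested. Group means of the tested members spread widely, from near background for the dimmer Wnt7b probe, Sfrp2 and Wnt5b to above 11 for the brighter Tcf7l1 probe. The 17 genes detected on 0 arrays were Wnt1, Wnt2, Wnt2b, Wnt3, Wnt3a, Wnt8a, Wnt8b, Wnt9b, Wnt10b, Wnt11, Fzd8, Fzd10, Sfrp5, Dkk1, Dkk2, Dkk4 and Lef1. Wnt7a, Wnt9a and Wnt16 were detected on 1 or 2 arrays at most. Wnt7a was detected on 2 arrays, both of 2N control cells. By role, 6 of 19 ligands, 8 of 10 receptors and coreceptors, 5 of 9 antagonists, the Axin gene Axin2, and 2 of 3 TCF/LEF genes were tested. Axin1, Tcf7, Fzd5 and Fzd9 had no probe of that name and were not analysed here. Fzd4 and Dkk3 each also had a probe that was detected on 0 arrays beside those that were.

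**Figure D1:**
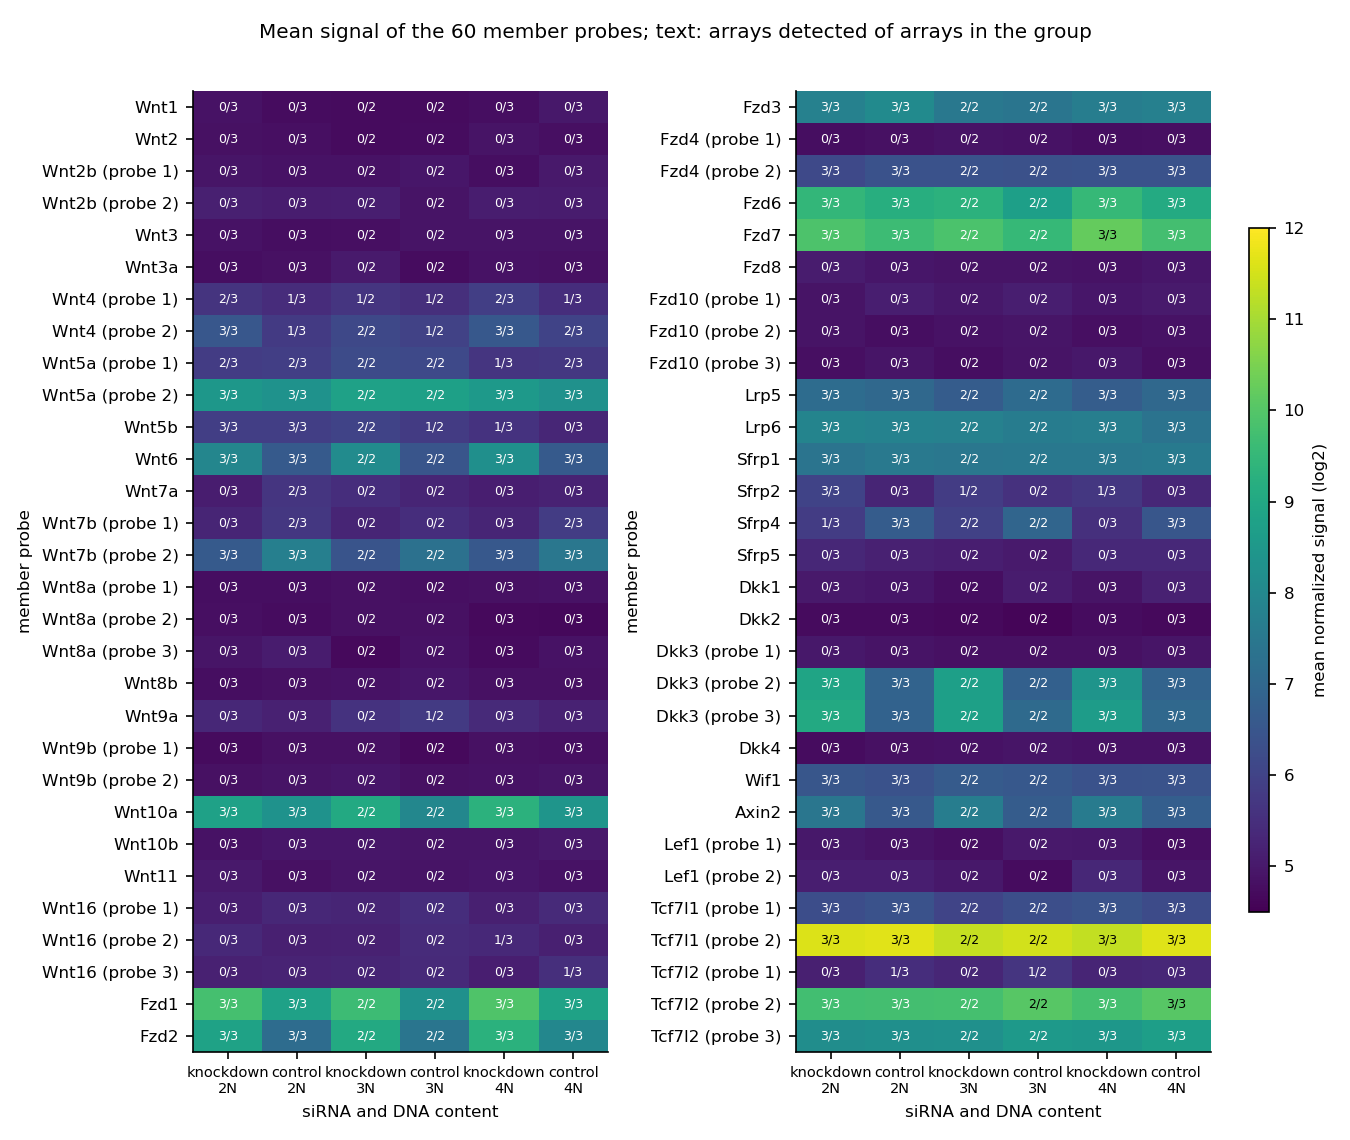
Mean log2 normalized signal (colour) of the 60 Wnt probes (vertical axis, by role) in the 6 groups (horizontal axis, each knockdown group left of its control), with the number of arrays that detected the probe out of the arrays in the group. The 27 probes detected on 0 arrays form the dark bands, and Wnt6, Fzd1, Fzd2 and Dkk3 are brighter in each knockdown column than in the control column beside it.

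Knockdown of the fusion was accompanied by higher signal of several ligands, receptors and antagonists and by lower Wnt7b. Higher in 2N, 3N and 4N knockdown cells were Wnt6, Fzd1, Fzd2, Dkk3 (both tested probes) and Axin2, with log2 changes between 0.86 and 2.18. The brighter Wnt7b probe was lower in all 3. In total 13 probes of 11 genes passed the test (adjusted p under 0.05 over all 13882 probes) in at least 1 DNA content, and 0 probes passed in opposite directions. The share of all tested probes that passed in at least 1, or in all 3, was not computed, so these totals have no background to be set against. In 2N cells 8 member probes were higher, where 9.46% of all tested probes were, and 2 were lower, where 10.1% were. In 3N cells 7 were higher, against a background of 5.27%, and 1 was lower, against 5.41%. In 4N cells 8 were higher, against 8.49%, and 3 were lower, against 8.85%. The median change of the 28 tested members was 0.12 in 2N, 0.12 in 3N and 0.27 in 4N cells, and that of all tested probes was -0.02, -0.01 and -0.02. With arrays scaled to their median in place of quantile normalization, the median of all probes in 2N cells was -0.11 and the share of called probes that were higher was 32.8% in place of 48.4%, while the members in 2N cells split 8 higher and 3 lower.

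**Figure D2:**
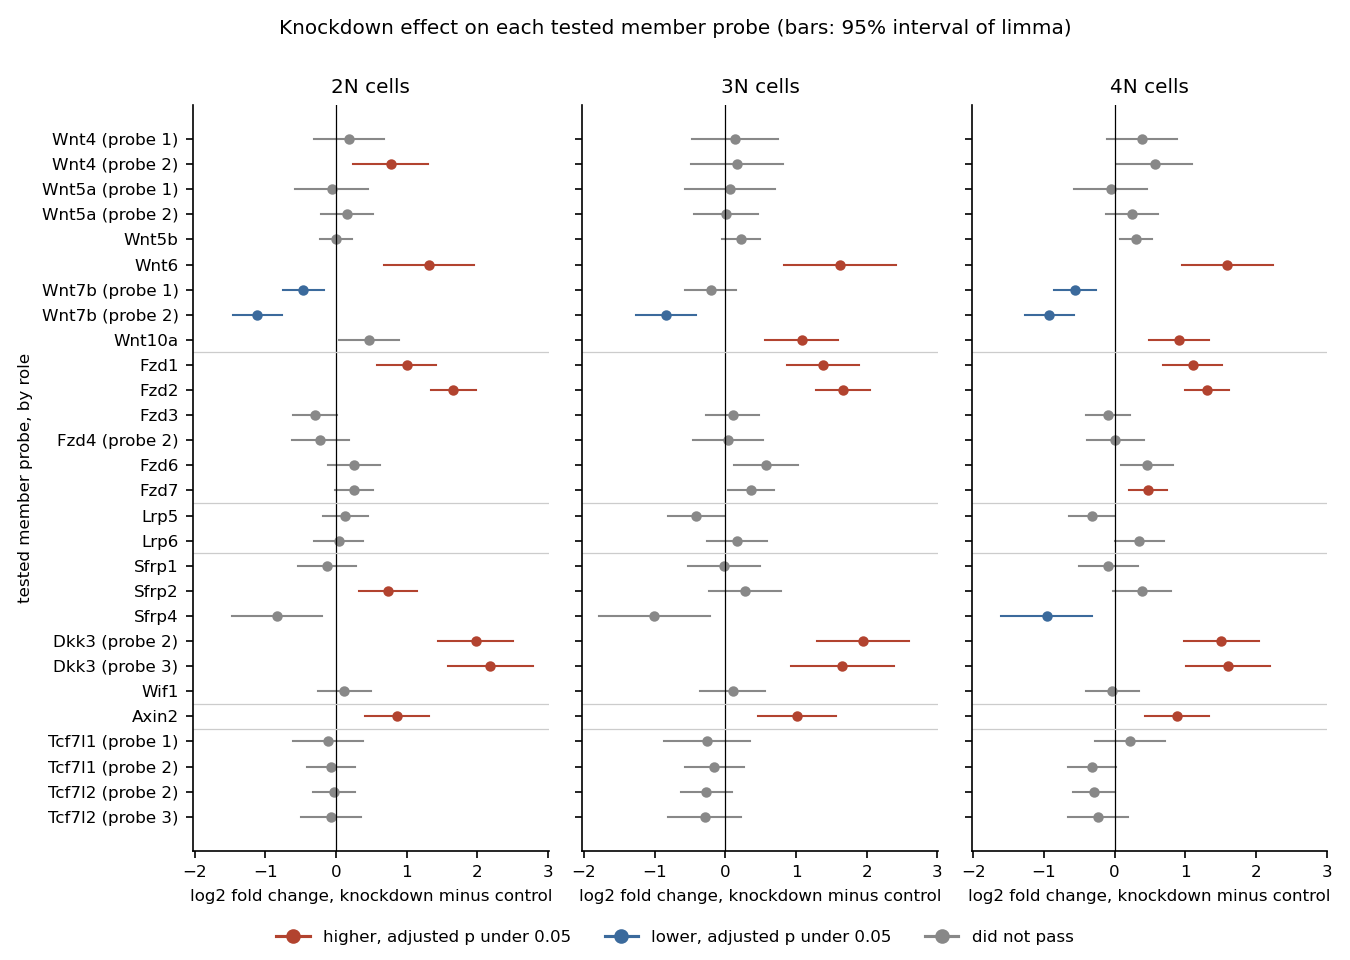
Log2 fold change of knockdown minus control (horizontal axis) for the 28 tested Wnt probes (vertical axis, by role) in 2N, 3N and 4N cells, with the 95% interval of limma's fit as bars. Red points passed the test as higher and blue points as lower. Fzd1, Fzd2, Wnt6, Dkk3 and Axin2 lie to the right of 0 in all 3 panels and the brighter Wnt7b probe (probe 2) to the left.

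Of the 6 tested ligand genes, 4 changed with knockdown in at least 1 DNA content, a count for which no share over all genes was computed. Wnt6, known in the chick embryo as an ectodermal signal that keeps somites epithelial, read 8.48, 7.87 and 7.46 in 2N knockdown cells of experiments 1, 2 and 3, against 6.73, 7.10 and 6.03 in 2N control cells. Its 3N values were 8.38 and 7.85 with knockdown, against 6.35 and 6.63 in controls. The 4N arrays gave 8.66, 8.11 and 7.91 with knockdown, against 6.56, 6.95 and 6.38 in controls. Every knockdown array lay above every control array of the same DNA content, and within the 2N and 4N knockdown groups experiment 1 was high and experiment 3 low. The changes were 1.32 ± 0.30, 1.62 ± 0.37 and 1.6 ± 0.30 (SE), or 2.49-fold, 3.08-fold and 3.02-fold (adjusted p = 0.00692, 0.0108 and 0.00214). The 3N call was lost without experiment 1 of the knockdown (adjusted p = 0.101) or of the control (0.0785). Without background correction the changes were smaller, at 0.79, 0.99 and 1.01, and all 3 passed.

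Wnt10a, known for its part in tooth and hair development, is the next protein-coding gene to Wnt6 on chromosome 1 in the RefSeq annotation of GRCm38.p6. Of 4 pairs of members that are next to each other in this way, it was the only pair with both genes tested. Wnt10a read 8.90, 9.17 and 8.32 in 2N knockdown cells, against 8.15, 8.44 and 8.38 in 2N control cells. The 3N arrays gave 9.04 and 9.05 with knockdown, against 7.83 and 8.11 in controls. Among 4N cells the values were 9.47, 9.33 and 9.16 with knockdown, against 8.09, 8.72 and 8.43 in controls. The groups overlapped in 2N cells, where experiment 3 of the knockdown was as low as the controls, and not in 3N or 4N cells. Wnt10a rose by 1.08 ± 0.24 in 3N (2.11-fold, adjusted p = 0.0101) and 0.91 ± 0.20 in 4N cells (1.88-fold, adjusted p = 0.00571). The 2N difference of 0.47 ± 0.20 did not pass (adjusted p = 0.114). The knockdown effect in 4N minus that in 2N was 0.44, with a 95% interval from -0.16 to 1.04, so a larger response in 4N cells was not shown. The 3N call was lost without experiment 1 of the knockdown (adjusted p = 0.0565), experiment 2 of the knockdown (0.0656) or experiment 1 of the control (0.0858).

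Wnt7b, a ligand of lung and kidney development, was the ligand that fell. Its brighter probe read 6.42, 6.86 and 6.61 in 2N knockdown cells, against 7.73, 7.65 and 7.85 in 2N control cells. Among 3N cells the values were 6.50 and 6.38 with knockdown, against 7.52 and 7.04 in controls. For 4N cells it stood at 6.32, 6.50 and 6.86 with knockdown, against 7.68, 7.41 and 7.36 in controls. No knockdown array reached the lowest control array of its DNA content. The changes were -1.11 ± 0.16, -0.84 ± 0.20 and -0.92 ± 0.16 (SE), so that the 2N and 4N controls were 2.16-fold and 1.89-fold brighter (adjusted p = 0.000313 in 2N, 0.0143 in 3N and 0.00136 in 4N cells). The 3N call was lost without experiment 1 of the knockdown (adjusted p = 0.053), experiment 2 of the knockdown (0.107) or experiment 1 of the control (0.14), and without background correction the 3 changes were -0.66, -0.46 and -0.52. The dimmer Wnt7b probe was detected on 2 of 3 arrays in the 2N and 4N controls and on 0 knockdown arrays. It was at least 1.04-fold lower in 2N (adjusted p = 0.0284) and at least 1.08-fold lower in 4N knockdown cells (adjusted p = 0.0116), where the bound sets the control mean against the detection limit of the knockdown arrays. In 3N cells it was detected on 0 arrays. Its 2N call was lost without background correction (adjusted p = 0.0909), with a normexp offset of 50 (0.0619), in the authors' values (0.0914) and without experiment 1 or 2 of the knockdown (0.0687 and 0.0869) or of the control (0.1 and 0.0772). Its 4N call was lost without experiment 2 of the knockdown (adjusted p = 0.0553) or experiment 1 of the control (0.0541).

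Wnt4, a ligand of kidney and ovary development, lay close to background. Its brighter probe read 6.55, 6.67 and 6.39 in 2N knockdown cells, against 5.56, 6.14 and 5.59 in 2N control cells, of which 1 array detected it. Its 3N values were 6.01 and 6.25 with knockdown, against 5.52 and 6.41 in controls. In 4N cells it read 6.67, 6.68 and 6.35 with knockdown, against 6.0, 6.46 and 5.54 in controls. The 2N groups did not overlap, and the 3N and 4N groups did. The 2N difference was 0.77 ± 0.25 (adjusted p = 0.0408), that in 3N cells 0.16 ± 0.30 (adjusted p = 0.81), and that in 4N cells 0.57 ± 0.25 (adjusted p = 0.136, or 0.0206 with the experiment as a block). The 2N call was lost with all probes tested (adjusted p = 0.0663) and in 8 of the 16 fits that left out an array, with adjusted p up to 0.129: those without any 2N knockdown array, without experiment 1 or 3 of the 2N control, without experiment 1 or 2 of the 4N knockdown, or without experiment 1 of the 4N control. The dimmer Wnt4 probe differed by 0.19, 0.14 and 0.39 and did not pass. Wnt5a, which mostly acts outside the beta-catenin branch, was called in no DNA content. Its brighter probe read 8.29 to 8.93 over the 8 knockdown arrays and 7.95 to 8.86 over the 8 control arrays, and its differences of 0.16, 0.01 and 0.25 had 95% intervals within -0.44 and 0.62. Wnt5b, the paralog of Wnt5a, was detected on 1 of 3 arrays of 4N knockdown cells and on 0 of 3 arrays of 4N control cells, so no fold is given. It was called in no DNA content (adjusted p = 0.0614 in 4N cells, or 0.0455 with the experiment as a block).

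Fzd1, Fzd2 and Fzd7, Frizzled receptors of a shared sequence subfamily, were higher with knockdown. Fzd2 read 9.06, 8.71 and 8.66 in 2N knockdown cells, against 7.11, 7.43 and 6.91 in 2N control cells. For 3N cells it stood at 9.18 and 8.95 with knockdown, against 7.33 and 7.47 in controls. Its 4N values were 9.36, 9.29 and 9.19 with knockdown, against 7.84, 8.16 and 7.92 in controls. All 8 knockdown arrays lay above all 8 control arrays, whatever the DNA content. Fzd2 rose by 1.66 ± 0.15 in 2N (3.16-fold, adjusted p = 5.52e-06), 1.66 ± 0.18 in 3N (3.17-fold, adjusted p = 5.22e-05) and 1.31 ± 0.15 in 4N cells (2.47-fold, adjusted p = 3.59e-05), and kept its call in every fit that left out an array.

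Fzd1 read 9.58, 9.86 and 9.95 in 2N knockdown cells, against 8.67, 8.61 and 9.11 in 2N control cells. In 3N cells it read 9.54 and 9.74 with knockdown, against 8.36 and 8.16 in controls. The 4N arrays gave 9.71, 10.13 and 9.97 with knockdown, against 8.38, 9.0 and 9.13 in controls. The groups did not overlap at any DNA content, and the 3N controls were the dimmest pair. Fzd1 rose by 1.00 ± 0.19 (2.00-fold), 1.38 ± 0.24 (2.61-fold) and 1.10 ± 0.19 (2.15-fold) in 2N, 3N and 4N cells (adjusted p = 0.00238, 0.00184 and 0.0013), and kept its call in every fit that left out an array.

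Fzd7, a receptor for Wnt7a in mouse satellite cells, read 10.36, 10.13 and 10.20 in 4N knockdown cells, against 9.79, 9.74 and 9.75 in 4N control cells. In 2N cells it read 10.11, 9.85 and 9.74 with knockdown, against 9.69, 9.64 and 9.60 in controls. Its 3N values were 10.11 and 9.65 with knockdown, against 9.50 and 9.54 in controls. The groups did not overlap at any DNA content, but the distance between them was small in 2N and 3N cells. The 4N rise was 0.47 ± 0.12 (1.39-fold, adjusted p = 0.0178), and the differences of 0.26 in 2N and 0.36 in 3N cells did not pass (adjusted p = 0.168 and 0.158). The 4N call was lost under median scaling (adjusted p = 0.0737) and without experiment 1 of the knockdown (0.0748) or experiment 3 of the control (0.0503).

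The other receptors and coreceptors were not called. Fzd3 and Fzd6, known for planar polarity, Fzd4, a receptor for Norrin in the retina, Lrp5 and Lrp6 had knockdown differences from -0.42 (Lrp5 in 3N cells) to 0.57 (Fzd6 in 3N cells). Fzd6 read 9.45 and 9.17 in 3N knockdown cells, against 8.89 and 8.58 in 3N control cells, which did not overlap. Its differences of 0.57 in 3N and 0.45 in 4N cells did not pass (adjusted p = 0.101 and 0.0865) and passed with the experiment as a block (0.0105 and 0.00888). Fzd3 differed by -0.30 in 2N cells (adjusted p = 0.167, or 0.027 with the block). Lrp6 differed by 0.04, 0.17 and 0.35 and Lrp5 by 0.13, -0.42 and -0.32 in 2N, 3N and 4N cells. Over all 15 tested probes called in no knockdown comparison, the 95% intervals reached from -0.86 to 1.02 and do not show that these members were unchanged.

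Among the secreted antagonists, Dkk3 gave the largest change of any member, in 2N cells. Dkk3 is a divergent Dickkopf protein whose effect on Wnt signals is known to vary with the cell. Its brighter probe read 9.26, 9.29 and 8.59 in 2N knockdown cells, against 6.81, 7.16 and 6.62 in 2N control cells. The 3N arrays gave 8.59 and 8.92 with knockdown, against 6.71 and 7.49 in controls. Among 4N cells the values were 8.62, 9.08 and 8.23 with knockdown, against 6.84, 7.50 and 6.77 in controls. All knockdown arrays lay above all control arrays, and in 2N and 4N cells experiment 2 was high and experiment 3 low in both siRNA groups. The rise was 2.18 ± 0.28 (4.54-fold), 1.65 ± 0.34 (3.15-fold) and 1.61 ± 0.28 (3.04-fold) in 2N, 3N and 4N cells (adjusted p = 0.000109, 0.00604 and 0.00119). The other tested Dkk3 probe gave 1.97 ± 0.25, 1.94 ± 0.30 and 1.51 ± 0.25 (adjusted p = 9.68e-05, 0.000954 and 0.00079). The 3N call of the brighter probe was lost without experiment 2 of the knockdown (adjusted p = 0.066) or experiment 1 of the control (0.0761), that of the other probe was kept in every fit that left out an array, and without background correction the 4N change of the other probe was 1.00.

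Sfrp2 and Sfrp4, secreted proteins with a Frizzled-like domain, were close to background and moved in opposite directions. Sfrp2 read 5.78, 6.15 and 6.09 in 2N knockdown cells, all detected, against 5.28, 5.06 and 5.47 in 2N control cells, where it was detected on 0 arrays. It was at least 1.2-fold higher in 2N knockdown cells (adjusted p = 0.0146). In 3N and 4N cells it was detected on 1 knockdown array each and on 0 control arrays, and it was not called. Sfrp4 read 5.33, 5.63 and 5.68 in 4N knockdown cells, where it was detected on 0 arrays, against 6.01, 7.18 and 6.33 in 4N control cells, all detected. It was at least 1.72-fold lower in 4N knockdown cells (fitted difference -0.96, adjusted p = 0.0395). In 2N cells Sfrp4 read 5.60, 5.42 and 6.51 with knockdown, against 6.67, 6.41 and 6.95 in controls, and the groups overlapped through experiment 3. The differences of -0.84 in 2N and -1.01 in 3N cells did not pass (adjusted p = 0.0646 and 0.0996). The Sfrp2 call was lost without experiment 2 of the 2N knockdown (adjusted p = 0.0594) or of the 2N control (0.0574), and its fitted change of 0.74 was 0.32 without background correction. The Sfrp4 call was lost with all probes tested (adjusted p = 0.0658), in a fit without the 3N arrays (0.0544) and in 8 of the 16 fits that left out an array: those without any 4N knockdown array, without experiment 2 or 3 of the 4N control, without either 3N knockdown array or without experiment 1 of the 2N control. Without experiment 2 of the 4N control its fitted difference was -0.63 (adjusted p = 0.158). Sfrp1 and Wif1 were detected on all 16 arrays, with differences from -0.13 to 0.12 that did not pass.

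Axin2, a scaffold of the destruction complex and itself a textbook target of beta-catenin that limits the signal, rose in all 3 DNA contents. It read 7.52, 7.43 and 7.40 in 2N knockdown cells, against 6.29, 6.42 and 7.06 in 2N control cells. Among 3N cells the values were 7.89 and 7.49 with knockdown, against 6.67 and 6.69 in controls. For 4N cells it stood at 7.90, 7.50 and 7.46 with knockdown, against 6.38, 6.70 and 7.14 in controls. No groups overlapped, and in the 2N and 4N controls experiment 3 was the highest and experiment 1 the lowest. The rise was 0.86 ± 0.21 (1.81-fold), 1.01 ± 0.26 (2.02-fold) and 0.88 ± 0.21 (1.84-fold) in 2N, 3N and 4N cells (adjusted p = 0.011, 0.0218 and 0.0106). The call was lost without experiment 1 of the control in 2N cells (adjusted p = 0.0531), without experiment 1 of the knockdown (0.165) or either control array (0.0937 and 0.0913) in 3N cells, and without experiment 1 of the knockdown (0.0508) or of the control (0.0526) in 4N cells. Without background correction the 3 changes were 0.48, 0.60 and 0.52, and all passed.

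Of the nuclear factors, Tcf7l1, mostly a repressor of Wnt targets, and Tcf7l2 were measured and Lef1 was detected on 0 arrays. The brighter Tcf7l1 probe read 11.24 to 11.67 over the knockdown arrays and 11.24 to 11.91 over the control arrays. Its differences were -0.06, -0.16 and -0.31 and did not pass, with an adjusted p of 0.204 in 4N cells (0.0495 with the experiment as a block). The brighter Tcf7l2 probe differed by -0.03, -0.27 and -0.29 (lowest adjusted p = 0.181), and the other by -0.07, -0.29 and -0.23.

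**Figure D3:**
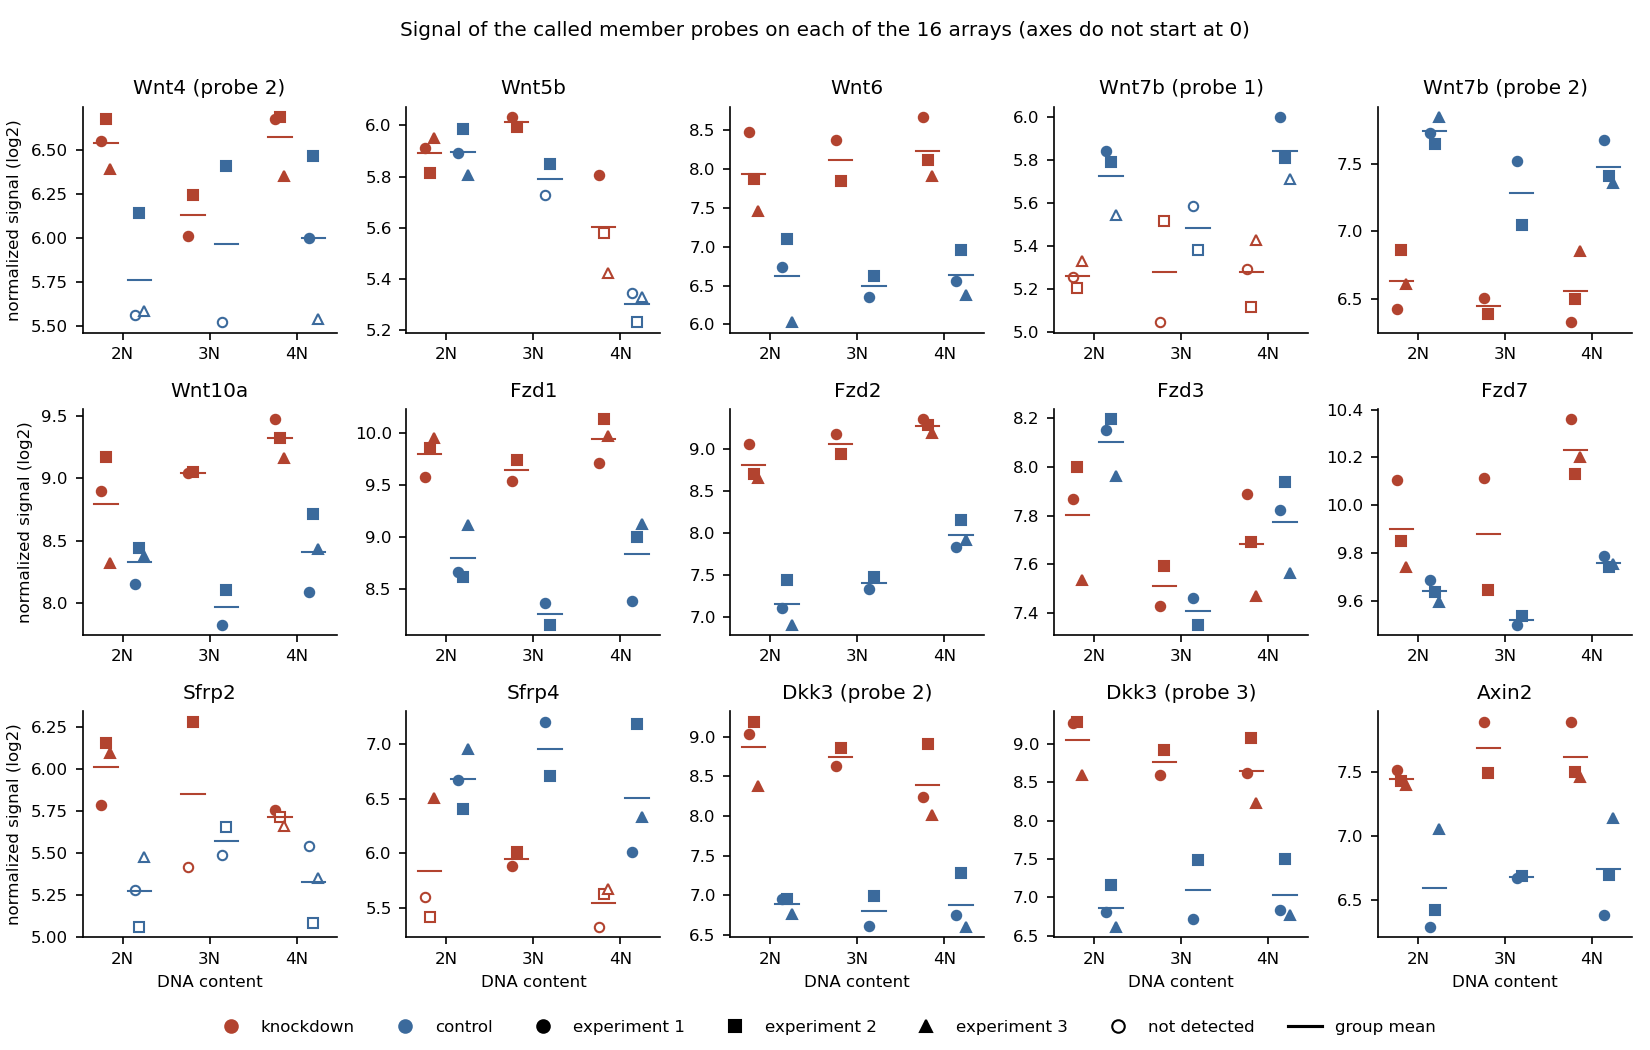
Log2 normalized signal (vertical axes, which do not start at 0) of the 15 called Wnt probes (13 with knockdown, Wnt5b between 4N and 2N control cells and Fzd3 between 3N and 2N control cells) on each of the 16 arrays, by DNA content (horizontal axes), with knockdown in red to the left of control in blue. Marker shape gives the experiment, open markers are arrays that did not detect the probe, and lines are group means. Fzd2 knockdown arrays lie between 8.66 and 9.36 and its control arrays between 6.91 and 8.16.

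Promoters are shown for Axin2, Fzd1 and Wnt6, the genes higher in all 3 knockdown comparisons that are in the promoter table used. That table holds the RefSeq gene starts of GRCm38.p6 and has promoters for 28 of the 42 member genes, 35 promoters in all. The 250 bases before each start were searched on both strands for the TCF/LEF core CTTTGA, the longer TCF/LEF site CTTTGAT (which contains the core), the GC box GGGCGG, the forkhead site GTAAACA and the paired-domain site GTCACGC. Capitals below mark the matches, read on either strand, 5′ to 3′ along the gene.
Axin2, chr11:108920099-108920348, plus strand: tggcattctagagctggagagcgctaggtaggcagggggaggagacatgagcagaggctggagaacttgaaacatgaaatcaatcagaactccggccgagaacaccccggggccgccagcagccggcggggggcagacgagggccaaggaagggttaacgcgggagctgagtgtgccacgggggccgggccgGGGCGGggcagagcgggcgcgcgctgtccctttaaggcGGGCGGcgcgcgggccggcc
Fzd1, chr5:4758217-4758466, minus strand: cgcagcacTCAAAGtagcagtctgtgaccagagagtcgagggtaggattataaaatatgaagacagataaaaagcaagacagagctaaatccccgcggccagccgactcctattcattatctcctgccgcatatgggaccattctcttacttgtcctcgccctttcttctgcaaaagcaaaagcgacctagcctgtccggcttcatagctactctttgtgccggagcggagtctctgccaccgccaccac
Wnt6, chr1:74771642-74771891, plus strand: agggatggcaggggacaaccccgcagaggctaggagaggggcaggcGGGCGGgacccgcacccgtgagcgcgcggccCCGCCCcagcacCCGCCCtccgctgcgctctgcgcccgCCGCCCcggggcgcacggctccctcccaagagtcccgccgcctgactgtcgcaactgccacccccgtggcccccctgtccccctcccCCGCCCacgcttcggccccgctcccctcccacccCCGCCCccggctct

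The Axin2 window held 2 GC boxes and 0 TCF/LEF cores, and its GC content was 69.2%. The Wnt6 window held 6 GC boxes and had a GC content of 79.6%. The Fzd1 window held 0 GC boxes and 1 TCF/LEF core, which lay 242 to 237 bases before the start on the antisense strand, and its GC content was 51.2%, near the median of 52.4% over all 32851 promoters. GC boxes were in 25 of the 35 member promoters and in 32.7% of all promoters, while the median GC content of the member promoters was 66.4%. The TCF/LEF core was in 5 member promoters (Dkk1, Fzd1, Lef1, Wnt11 and Wnt5b) and in 13.8% of all, and the longer site in those of Wnt5b and Wnt11 and in 3.21% of all. The paired-domain site was in 2 (Wnt5b and Wnt9a) and in 1.78% of all, and the forkhead site in 0 and in 3.17% of all. A match is a run of letters, not a measured binding site.

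Few member probes were called between DNA contents, and few were called among all tested probes. Between 4N and 2N control cells 2 member probes differed, where 4.51% of all tested probes did. Fzd2 was higher in 4N control cells, with the values given above (mean 7.97 in 4N and 7.15 in 2N control cells), by 0.82 ± 0.15 (1.77-fold, adjusted p = 0.00362). In knockdown cells the same comparison gave 0.47 ± 0.15, which did not pass (adjusted p = 0.0893, or 0.0498 with the experiment as a block). Wnt5b read 5.35, 5.23 and 5.33 in 4N control cells, where it was detected on 0 arrays, against 5.89, 5.99 and 5.81 in 2N control cells, all detected. It was at least 1.12-fold lower in 4N control cells (fitted difference -0.59, adjusted p = 0.00322). In knockdown cells it read 5.81, 5.58 and 5.42 in 4N, against 5.91, 5.81 and 5.95 in 2N cells, and the difference of -0.29 did not pass (adjusted p = 0.148). Without background correction the control differences were 0.54 for Fzd2 and -0.25 for Wnt5b. In 4N against 2N knockdown cells 0 members passed and 5 had an unadjusted p under 0.05, where 5.09% of all probes passed. Lrp5 was among them, with 6.94, 6.37 and 6.81 in 4N, against 7.07, 7.10 and 7.32 in 2N knockdown cells (difference -0.46, adjusted p = 0.109, or 0.028 with the block).

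Between 3N and 2N control cells 1 member probe differed, that of Fzd3. It read 7.46 and 7.35 in 3N control cells, against 8.15, 8.19 and 7.96 in 2N control cells, a difference of -0.69 ± 0.16 (adjusted p = 0.025), where 4.16% of all probes were called. This call was lost without experiment 1 or 2 of the 2N control (adjusted p = 0.0736 and 0.0663) or of the 3N control (0.0986 and 0.181). In knockdown cells Fzd3 read 7.43 and 7.59 in 3N, against 7.87, 8.0 and 7.54 in 2N cells, and the difference of -0.29 did not pass (adjusted p = 0.39, or 0.0339 with the block). With the block, Fzd3 passed as lower in the 4N control fraction as well (adjusted p = 0.0438, and 0.258 without it). In 3N against 2N knockdown cells 0 members passed, 1 had an unadjusted p under 0.05, and 5.48% of all probes passed.

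The knockdown effect in 4N minus that in 2N cells was called by limma for 0 of 13882 probes, or 0%, and 445 had an unadjusted p under 0.05. The corresponding counts with the block were 0 and 739. Among members Lrp5 had the lowest unadjusted p, at 0.0495, with a difference of -0.46 and a 95% interval from -0.91 to -0.0012. For the brighter Dkk3 probe the difference was -0.58 (95% interval from -1.42 to 0.27), and for Axin2 it was 0.02 (from -0.62 to 0.66). Across all 6 groups together, 15 of the 28 tested members (53.6%, 13 genes) differed by limma's F test, where 35.2% of all tested probes did.

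Other genes of the pathway, taken from lists and read by the brightest detected probe of each gene, changed in both directions with knockdown. Of all tested probes, 9.46% were higher and 10.1% lower in 2N cells, 5.27% and 5.41% in 3N cells, and 8.49% and 8.85% in 4N cells. No share over all genes read by their brightest probe was computed. Porcn, the enzyme that attaches the lipid Wnt ligands need for secretion, rose by 1.10, 0.91 and 0.92 in 2N, 3N and 4N cells (2.14-fold, 1.87-fold and 1.89-fold), and it was 1 of 3 measured secretion genes to pass. Rspo2, an R-spondin, which prolongs Wnt signals by sparing Frizzled receptors from degradation, rose by 1.07, 0.64 and 0.95, and it was 1 of 2 measured genes of its list. Of 7 other measured secreted or membrane modulators, 2 rose and 3 fell in each DNA content. The cell-surface proteoglycans Gpc3 and Gpc4 rose by 1.15, 1.48 and 1.24 and by 1.22, 0.96 and 1.05. Gpc3 lay near background (mean 5.69), so the size of its changes is uncertain. Apcdd1, a membrane inhibitor of Wnt signals, gave -0.91, -0.98 and -0.90. Of 8 measured alternative receptors and planar polarity genes, Ptk7, a pseudokinase coreceptor, rose by 0.65, 0.57 and 0.77. In 4N cells the formin Daam2 rose by 0.52 and Vangl1 gave -0.68, and 2 genes rose in 2N, 1 in 3N and 2 in 4N cells in all.

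Genes that act inside the cell also changed in both directions. Of 11 measured genes of the Dishevelled and destruction complex list, Gsk3b, which marks beta-catenin for degradation, rose by 0.35, 0.41 and 0.35, and Btrc, part of the ubiquitin ligase that recognizes it, by 0.45 in 2N cells. Ctnnb1, which encodes beta-catenin, differed by 0.21, 0.18 and 0.03 and did not pass. Of 14 measured nuclear cofactors, the corepressor Tle4 rose by 0.93, 0.99 and 0.84 in 2N, 3N and 4N cells. Pygo2, a beta-catenin cofactor, gave -0.41, -0.58 and -0.44, and the corepressor Tle1 gave -0.76 in 3N and -0.38 in 4N cells. Of 15 measured textbook target and feedback genes, 4 rose and 3 fell in 2N and in 3N cells, and 5 rose and 3 fell in 4N cells. The shares of all tested probes given above are the only background for these counts. Nkd2, which binds Dishevelled and limits the signal, rose by 1.5, 2.04 and 1.80. The matricellular proteins Ccn4 and Ccn5 rose by 1.44, 1.66 and 1.37 and by 1.58, 1.46 and 1.93. Ccn5 lay near background (mean 6.13), so the size of its changes is uncertain. Sp5, a transcription factor that is a direct target in mouse embryos and was picked out here after its values were seen, gave -1.28, -1.52 and -1.47. Probes of a gene differed for Gpc3, whose other probe passed in 4N cells alone, and for Btrc, whose other probe gave -0.05 in 2N cells. They also differed for Tle4, whose other probe passed in 2N cells alone. For Ryk, the brightest of 3 probes was not called while another rose in all 3 DNA contents. Vangl2 and Bcl9l were counted as higher in 2N cells (0.50 and 0.48), where their other probes gave -0.11 and -0.27. Cd44 gave -0.53, -0.52 and -0.42 and Igfbp4 -0.33, -0.54 and -0.49 in 2N, 3N and 4N cells, and all passed. Ccnd1 gave -0.27, -0.40 and -0.29, of which the 2N value did not pass. Probes of Ccnd1, Cd44 and Igfbp4 differed in the DNA contents where they passed, and each probe that passed was lower.

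**Figure D4:**
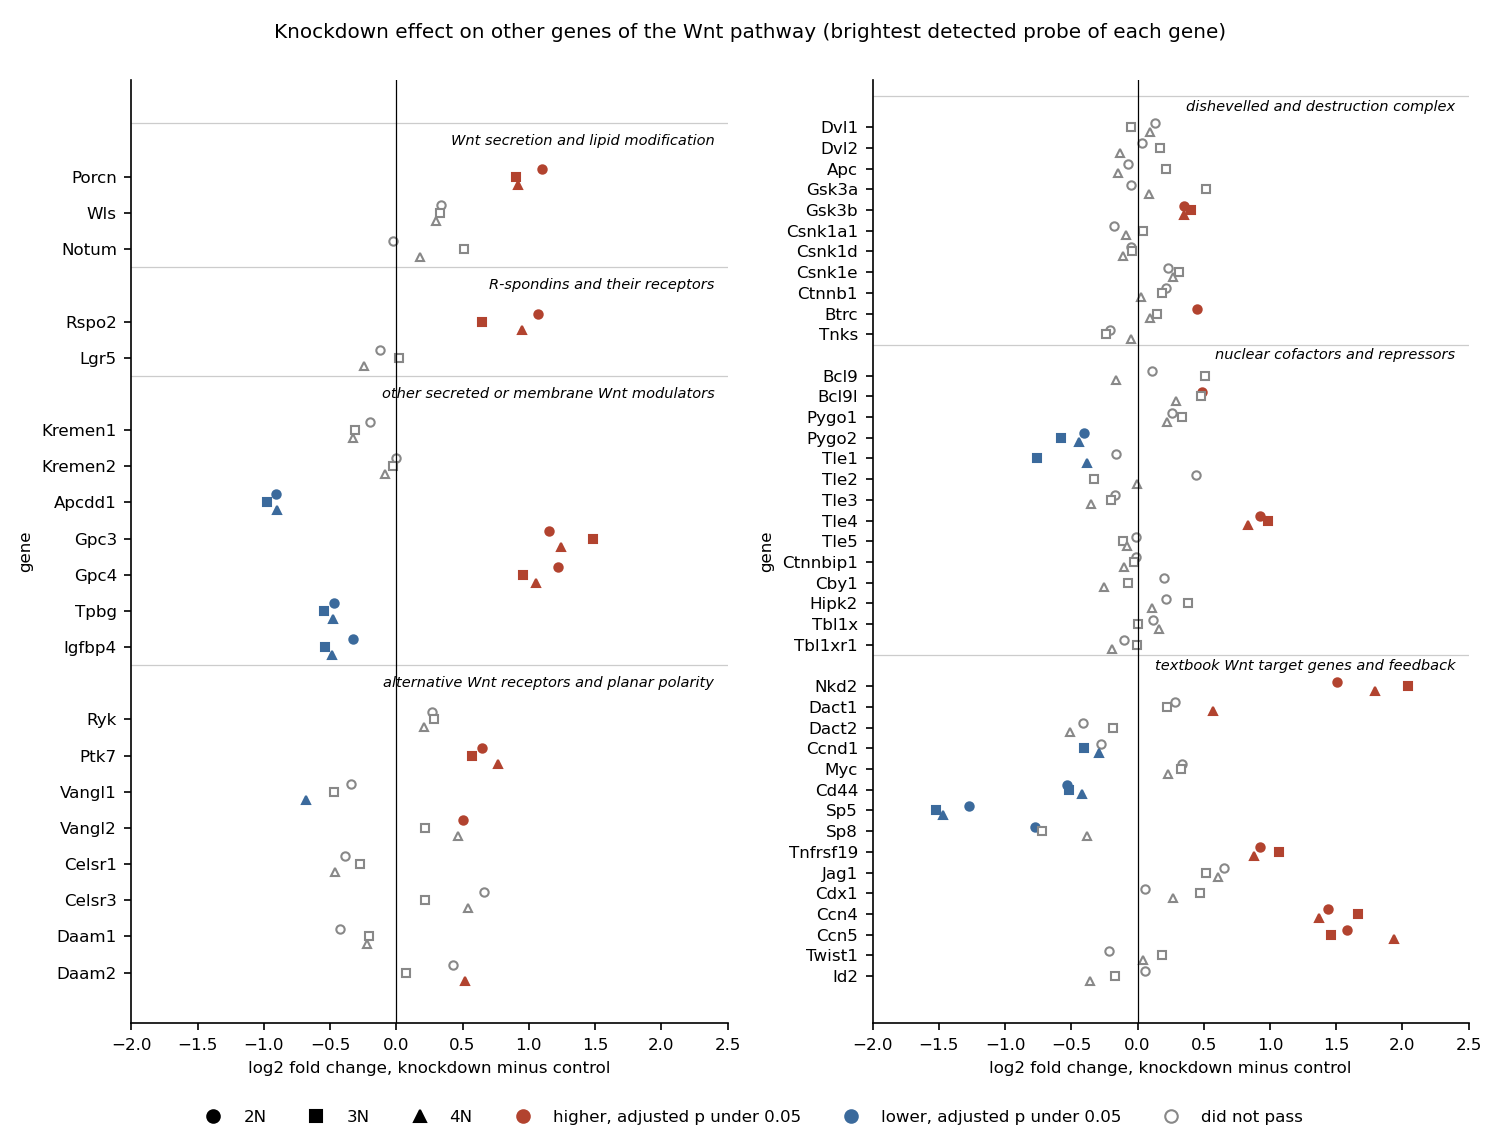
Log2 fold change of knockdown minus control (horizontal axes) for the measured genes of 7 other Wnt pathway lists (vertical axes) in 2N (circles), 3N (squares) and 4N cells (triangles). Filled red and blue symbols passed the test as higher and lower, and open grey ones did not pass. Nkd2, Ccn4 and Ccn5 lie far to the right and Sp5 to the left in all 3 DNA contents.

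Marker lists of cell types moved with knockdown in part. The counts below stand beside shares of all tested probes of 9.46% higher and 10.1% lower in 2N cells. These shares were 5.27% and 5.41% in 3N cells, and 8.49% and 8.85% in 4N cells. Of 11 skeletal muscle markers with a probe 8 were measured, and Myod1, Myf6 and Mymk were detected too rarely to be tested. In this list 3 rose and 1 fell in 2N, 1 rose and 0 fell in 3N, and 2 rose and 2 fell in 4N cells. The sarcomeric actin Actc1 rose by 2.12, 2.39 and 1.76, Des by 0.52 in 2N and 0.61 in 4N cells, and Chrng by 1.19 in 2N cells. Chrna1 gave -0.65 in 2N and -0.53 in 4N cells, and Chrnd gave -0.80 in 4N cells. Probes differed for Myog, whose dimmer probe alone passed, in 2N cells (0.96), and for Chrna1, whose dimmest of 3 probes did not pass. Signal sums of the muscle list lay between 7307 and 9211 in 2N knockdown against 6468 and 7978 in 2N control cells. They lay between 9493 and 9681 in 3N knockdown against 5973 and 6545 in 3N control cells. In 4N cells they lay between 8633 and 9615 with knockdown against 7115 and 8697 in controls. Chrna1 and Actc1 were the brightest genes in these sums (means 11.1 and 10.7). Of 12 fibroblast and adipocyte markers 6 were measured, of which 2 rose and 2 fell in 2N and in 3N cells and 3 rose and 2 fell in 4N cells. The collagen gene Col1a1 rose by 1.80, 1.85 and 1.62, but it lay near background (mean 6.24), so the size of its changes is uncertain. Col3a1 rose by 1.13 in 2N and 0.93 in 4N cells, while its dimmer probe gave 0.88, 0.83 and 0.62 and did not pass. Dcn had fitted changes of 0.95 in 3N and 0.89 in 4N cells, but it lay near background (mean 5.24), so their size is uncertain. Pparg, a regulator of adipocyte differentiation, gave -1.22, -1.02 and -1.12 and Pdgfra -0.71, -0.94 and -0.73. The study names Pdgfra as a direct target of Pax3:Foxo1a and reported less Pdgfra protein after siYFP. Col1a2, Lum, Dpt, Adipoq, Fabp4 and Plin1 were not tested for lack of signal. The sums of this list lay between 6754 and 7322 in 2N knockdown against 7454 and 8345 in 2N control cells, between 6262 and 6382 in 3N knockdown against 6260 and 7441 in 3N control cells, and between 6654 and 7019 in 4N knockdown against 7177 and 7684 in 4N control cells. Col3a1 and Pparg were the brightest genes in these sums (means 11.3 and 11.2). Of 8 endothelial markers 0 were measured, and of 6 immune markers with a probe 1 was. This was Cd3e, a T cell receptor subunit, which rose by 0.77 in 3N (adjusted p = 0.0423) and 0.76 in 4N cells (0.0112), and its 2N difference of 0.54 did not pass (0.0549). Ptprc, Adgre1, Cd79a, Itgam and Lyz2 were not tested for lack of signal. Of 7 epithelial and neural markers with a probe 4 were measured, of which 1 rose in 2N, 2 in 3N and 1 in 4N cells and 0 fell. Cdh1 rose by 1.11, 1.44 and 1.5 and Krt8 by 0.71 in 3N cells, while Krt18 gave -0.27, 0.02 and 0.01 and Tubb3 -0.30, -0.08 and 0.10. Cdh1 lay near background (mean 6.21), so the size of its changes is uncertain. Sums of this list lay between 12350 and 15300 in 2N knockdown against 10880 and 14660 in 2N control cells, between 15530 and 16500 in 3N knockdown against 10520 and 12000 in 3N control cells, and between 15410 and 18440 in 4N knockdown against 12170 and 14710 in 4N control cells. Krt8 and Krt18 were the brightest genes in these sums (means 13.3 and 11.8), so the sums mostly read these genes. The part of these markers, and of any other cell type, in the Wnt gene changes was not tested.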

How the data were processed

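Total RNA of 16 sorted samples had been hybridised to 1-colour Illumina MouseRef-8 v2 BeadChips. The authors deposited GenomeStudio mean probe signals, an intensity on a linear scale without normalization, and beside each a detection value, a fraction deposited as 1 minus the detection p. The authors' processed values are an intensity too, equal to quantile normalized signals within 0.0327 on the log2 scale (median 0.000249). No source used here gives the genome build, probe positions or BeadChip slides.

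Signals were background corrected with limma's normexp model (offset 16), taken to log2 and quantile normalized (limma 3.58.1, R 4.3.3). A linear model with 1 mean for each of 6 groups and moderated variances was fitted to probes detected (p under 0.05) on 3 or more arrays. Benjamini-Hochberg adjustment ran over all 13882 tested probes (threshold 0.05). Of all probes, 23978 carried a gene symbol and 1719 none. The test was tried on simulated data first. A group undetected on every array gives a bound against its arrays' detection limit.

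The experiment numbers in the labels name shared experiments. Deviations from group means correlated between arrays of the same experiment (median 0.243, from -0.000254 to 0.494; -0.146 between experiments), and 16 of 16 arrays correlated best with their own, so the experiment was also fitted as a block. Other alternatives concerned the background, the normalization, the filter, the probes per gene, the arrays fitted and each array left out. Replicates correlated at 0.987 to 0.993; nothing says that the experiments used separate cultures, so p-values measure the spread between these samples. Their number limits the precision.

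Members of the Wnt list, and the other gene lists, were chosen with earlier results of these data known. Values on every array are given for member genes past the threshold in a knockdown comparison or between 4N and 2N cells, and of the other Wnt pathway lists at most 3 genes with the largest called change are named. Fzd3, Ctnnb1, Sp5, genes named for differing probes and the genes of the phase and cell type lists are named outside this rule, after their values were seen. Wnt genes without a probe of that name were not analysed here.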

Additional observations from a re-analysis of the deposited data

How the results depend on the processing

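The 32 calls of member probes had 300 values under the alternatives other than leaving out a single array, of which 293 kept the call, 7 lost it and 0 changed direction. Of 512 values with an array left out, 46 lost the call and 0 changed direction. The number of member probes called in 4N against 2N control cells was 1 with a detection p under 0.01, in place of 2. In 4N against 2N knockdown cells it was 1 without background correction, 1 in the authors' values and 2 with the replicate block, in place of 0, and in 3N against 2N knockdown cells 1 with the replicate block, in place of 0. With the block, members called with knockdown were 11 in 2N, 9 in 3N and 15 in 4N cells, in place of 10, 8 and 11, and those in 4N against 2N control cells were 3. Over all 13882 tested probes the block called 3674 in place of 2712 with knockdown in 2N cells. It called 2348 in place of 1482 in 3N and 3339 in place of 2408 in 4N cells. Between 4N and 2N cells it called 1164 in place of 706 and 1149 in place of 626 (knockdown, then control). Between 3N and 2N cells it called 1231 in place of 761 and 956 in place of 578 (knockdown, then control). The cause was not tested. The block changed no other call of a member than those given with it.

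Leaving out each array in turn gave 7 to 11 member calls with knockdown in 2N, 3 to 8 in 3N and 8 to 12 in 4N cells. In 3N cells the counts were 4 without experiment 1 of the knockdown, 5 without experiment 2 of the knockdown and 3 without experiment 1 of the control, where a lone array was assumed to vary like the other groups. The 4N against 2N comparison gave 0 to 0 in knockdown and 2 to 2 in control cells, the 3N against 2N comparison 0 to 0 in knockdown and 0 to 1 in control cells, the difference of knockdown effects 0 to 0, and the F test 12 to 15. Signals near background limit Wnt4, Wnt5b, Sfrp2, Sfrp4 and the dimmer Wnt7b probe. Among the other lists they limit Gpc3, Ccn5, Col1a1, Dcn, Chrnd, Cd3e and Cdh1.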
